A study of Homo sapiens with 2 samples.

Results

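Vault RNAs were compared between 2 arrays of hypoxic MDA-MB-231, a long-established line of human breast cancer with mesenchymal character. The 4 vault RNA genes VTRNA1-1, VTRNA1-2, VTRNA1-3 and VTRNA2-1 were chosen by symbol, as all clusters whose gene symbol begins with VTRNA in the platform's probe table. Each gene had 1 transcript cluster, so the family is 4 of 16098 named clusters and 4 of 14884 named genes. The family was put forward with its differences between these arrays known, so its values are given as a description and without a test.

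Cells of 1 group received a miR-544 antagomir, an oligonucleotide that binds and blocks this microRNA, and cells of the other group received compound 1, a compound that the study aims at miR-544 too. In both groups the agent was given 24 hours before hypoxia at below 1% oxygen, which lasted 5 days. Each group is 1 array of RNA that was pooled before hybridisation, and the design text speaks of 3 samples without saying whether that means 3 cultures per treatment. Neither untreated nor normoxic cells were part of the comparison, so each difference sets compound 1 against the antagomir. Replicate error cannot be had from single arrays, and treatment cannot be told apart from pool or hybridisation.

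Vaults are large hollow ribonucleoprotein particles of the cytoplasm, built mainly from the major vault protein MVP together with PARP4, TEP1 and short untranslated vault RNAs. RNA polymerase III transcribes the vault RNAs from promoter elements that lie partly inside the transcribed sequence, and most vault RNA in a cell is found outside the particle. The VTRNA1 RNAs are known for binding regulatory proteins such as the autophagy receptor SQSTM1. VTRNA2-1, also called nc886 and once annotated as a microRNA precursor, binds the double-stranded RNA-activated kinase PKR, and its promoter is methylated to a varying extent between individuals and tumours.

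The study aims both treatments at the same microRNA, and whether both agents bind its mature form was not tested. The mature sequence printed below was taken as that microRNA, which the study names without the final letter. RefSeq (GRCh38.p14) places it at chr14:101048712-101048733 on the plus strand. The capitals mark its seed, bases 2 to 8 from the 5′ end. The sequence tables used here held 0 of the 4 vault RNA genes, so no vault RNA sequence was read and none was searched for this seed.
hsa-miR-544a: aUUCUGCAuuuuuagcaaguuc

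Levels are the deposited values, whose range places them on a log2 scale, and each fold below assumes base 2. All 3 VTRNA1 genes were higher on the compound 1 array and VTRNA2-1 was lower. The differences were 0.98, 0.81 and 0.51 on the log2 scale for VTRNA1-1, VTRNA1-2 and VTRNA1-3, and -0.22 for VTRNA2-1. The median over the 4 genes was 0.66, against -0.0052 over all named clusters. These directions were the same after median centring, quantile normalization and cyclic loess.

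VTRNA1-1, the vault RNA best known for its effect on selective autophagy, read 5.37 (log2) with the antagomir and 6.35 with compound 1. The compound 1 value was thus 1.98-fold higher. VTRNA1-1 had the largest difference in the family, just inside 2-fold.

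VTRNA1-2, a shorter copy of 88 nt, read 4.05 (log2) with the antagomir and 4.87 with compound 1, a 1.75-fold difference. On the antagomir array 8.65% of named clusters had a lower value and on the compound 1 array 16.7%. Of the 4 members it lay where differences of named clusters at a like level were spread most, with a robust SD of 0.26.

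VTRNA1-3, also of 88 nt, read 6.88 (log2) with the antagomir and 7.38 with compound 1, a 1.42-fold difference. Of the 3 VTRNA1 genes it had the smallest difference, 0.48 below that of VTRNA1-1.

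VTRNA2-1, of 108 nt, read 7.50 (log2) with the antagomir and 7.29 with compound 1, 1.16-fold lower with compound 1. Its difference lay 1.20 below that of VTRNA1-1 and 0.72 below that of VTRNA1-3. It was the only member with the higher value on the antagomir array.

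**Figure D1:**
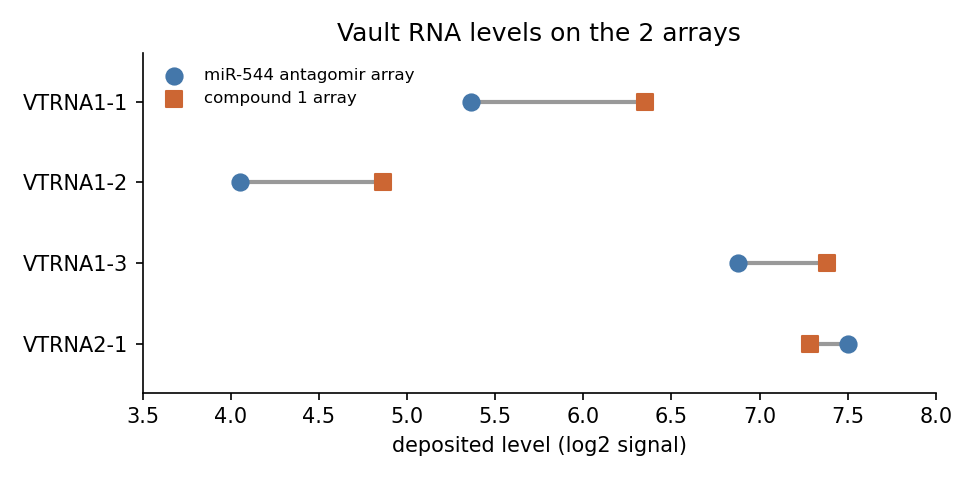
Deposited level (log2 signal, horizontal axis) of the 4 vault RNA genes on the antagomir array (circles) and the compound 1 array (squares), 1 array per treatment and so without error bars. The square lies to the right for the 3 VTRNA1 genes (6.35, 4.87 and 7.38) and to the left for VTRNA2-1 (7.29); levels of different genes are not comparable, since each has its own probes.

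Past 2-fold, 0 of the 4 vault RNA genes were found, where 0.317% of all named clusters passed in either direction. At 1.5-fold, 2 of the 4 were higher (VTRNA1-1 and VTRNA1-2) and 0 lower, where 1.45% of all named clusters were higher by that much and 0.95% lower. Since the family was picked with these differences in view, the shares stand beside the counts only as the background of the array.

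The direction among short genes as a class was also counted, since the vault RNAs are short. The named clusters of genes of 150 nt or shorter numbered 1262, of which 1232 belong to microRNA genes. Among them 60.2% were higher on the compound 1 array, against 46.9% of all named clusters. These shares were 56.5% and 41.4% after centring, 57.4% and 51.8% after quantile normalization, and 54.8% and 49.3% after cyclic loess. Of the short genes 7.53% were higher by 1.5-fold or more and 4.04% lower by as much. Their median difference was 0.082, and 0.052, 0.060 and 0.039 after centring, quantile normalization and cyclic loess. The 3 VTRNA1 genes thus had the direction that most short genes had, also after each scaling, while VTRNA2-1, of 108 nt, had the other. These shares are not matched for level, and medians of short genes near the level of each member are given below. The part of the short-gene direction in the VTRNA1 differences was not tested.

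Each member was also set beside named clusters whose mean level lay within 0.5 log2 of its own. Around VTRNA1-1 there were 3135 such clusters, with a median difference of 0.043 and a robust SD of 0.20, and VTRNA1-1 ranked 3 from the top. Among those clusters 0.702% were higher by 1.5-fold or more. Counting the 194 short genes alone, their median was 0.034, their robust SD 0.29, and VTRNA1-1 ranked 2 from the top, with 3.09% higher by 1.5-fold or more.

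VTRNA1-2 ranked 21 from the top among 1755 clusters at a like level, which had a median of 0.080 and a robust SD of 0.26. Of these clusters 3.53% were higher by 1.5-fold or more, and of the 197 short ones 7.11%. Among the short genes, which had a median of 0.063, it ranked 4 from the top. VTRNA1-3 ranked 15 from the top among 2898 clusters (median -0.024, robust SD 0.19) and 8 among 163 short ones (median 0.084). At its level 0.242% of clusters and 2.45% of short ones were higher by 1.5-fold or more.

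VTRNA2-1 lay within 1 robust SD of the median of all named clusters at a like level, but not of the short ones. The 2707 clusters at a like level had a median of -0.043 and a robust SD of 0.18, and 451 of them were lower than VTRNA2-1. Among the 134 short genes at that level the median was 0.095 and the robust SD 0.18, and VTRNA2-1 ranked 15 from the bottom.

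**Figure D2:**
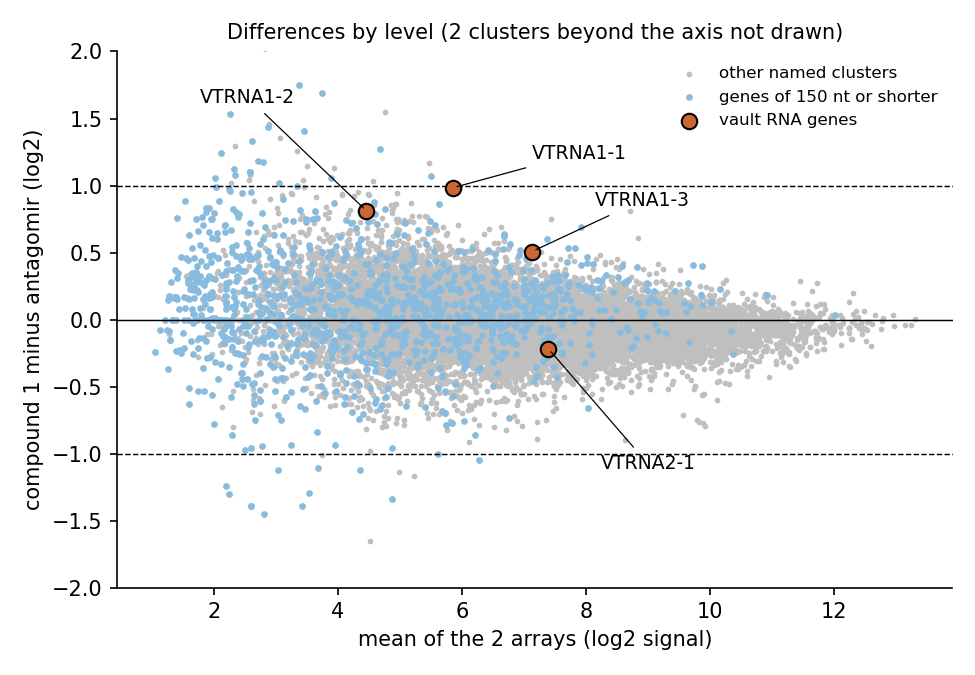
Difference between the arrays (compound 1 minus antagomir, log2, vertical axis) against the mean level of the 2 arrays (log2, horizontal axis) for all named clusters, with genes of 150 nt or shorter in blue, the vault RNA genes in orange and dashed lines at 2-fold. VTRNA1-1 (0.98), VTRNA1-2 (0.81) and VTRNA1-3 (0.51) lie along the upper edge of the cloud, and VTRNA2-1 (-0.22) lies within it.

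The scaling of the arrays moved these values little. Over the deposited values and 3 scalings VTRNA1-1 ranged from 0.94 to 0.98, VTRNA1-2 from 0.73 to 0.81, VTRNA1-3 from 0.48 to 0.54 and VTRNA2-1 from -0.25 to -0.17. The order of the 4 differences was the same in each.

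**Figure D3:**
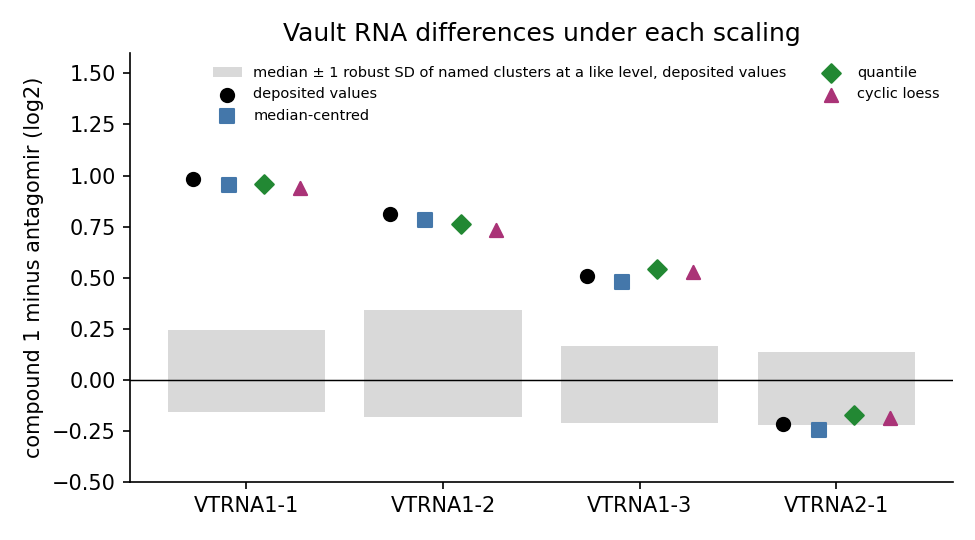
Difference (compound 1 minus antagomir, log2) of each vault RNA gene from the deposited values and after each of 3 scalings, over a grey band that spans the median ± 1 robust SD of the named clusters at a like level in the deposited values. All 4 points of each VTRNA1 gene lie above its band, while those of VTRNA2-1 lie at or near the lower edge of the band (-0.25 to -0.17).

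The VTRNA1 genes follow one another on chromosome 5, with 0 other annotated genes starting between them, and VTRNA2-1 lies apart on the same chromosome. Genes on either side of the VTRNA1 group differed less than its members. The nearest with a named cluster before it were HARS1, a histidyl-tRNA synthetase gene (8.15 with the antagomir and 8.12 with compound 1), and DND1, which encodes an RNA-binding protein of germ cells (7.09 and 7.11). After it the nearest with a named cluster were the protocadherin genes PCDHB1 (3.68 on both arrays) and PCDHB2 (5.45 and 5.23). None of the 4 was higher by more than 0.016 on the compound 1 array. Within 1.5-fold lay 97.6% of all named clusters. Identical values on both arrays, as for PCDHB1, were found for 361 named clusters.

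For VTRNA2-1, too, only the nearest genes with a named cluster are given. Before it, the liver-derived secreted factor gene LECT2 was at 2.89 with the antagomir and 2.48 with compound 1. The antisense RNA gene SLC25A48-AS1 was at 4.29 and 4.47. On the other side SMAD5, a signal transducer of bone morphogenetic proteins, was at 8.85 and 8.75, and its antisense gene SMAD5-AS1 at 4.92 and 5.10. No source used here says whether the probes of SMAD5 and SMAD5-AS1 read one strand each.

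Genes that work with vault RNAs were looked up from lists. Of the vault proteins, MVP was at 8.31 with the antagomir and 8.25 with compound 1; its difference of -0.065 became 0.0013 after quantile normalization. PARP4 and TEP1 had no named cluster here.

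Of 9 listed factors that bind or process vault RNAs, 7 had a named cluster, of which 3 were higher and 4 lower, and 0 passed 1.5-fold (2.4% of named clusters did). Their median was -0.019, and 0.059 after quantile normalization. SQSTM1, the autophagy receptor, was higher on the compound 1 array, at 8.39 against 8.18. SRSF2, a splicing factor that binds VTRNA1-1, was lower, at 10.10 against 10.38. The La protein gene SSB (-0.077), whose product guards the ends of new RNA polymerase III transcripts, and DIS3L2 (-0.019), a 3′ exonuclease, differed little. So did the RNA phosphatase gene DUSP11 (0.013) and the RNA sensor gene RIGI (0.036). DIS3L2 turned sign after quantile normalization and cyclic loess, and DUSP11 after centring. EIF2AK2 (-0.13), the gene of PKR, is counted here and again in the PKR list below, and SQSTM1 again in the autophagy list.

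Of 37 listed subunits and factors 12 had a named cluster, of which 9 were lower and 3 higher (10 and 2 after centring, 8 and 4 after quantile normalization or cyclic loess). Over all named genes 7664 of 14884 were lower, and of protein-coding clusters 6806 of 12694. Neither background is matched for level. The subunits had a median of -0.12, and -0.15, -0.061 and -0.065 after centring, quantile normalization and cyclic loess. POLR3GL (-0.40) and POLR3B (-0.19) were lowest, and POLR2F (0.087), shared with the other polymerases, and POLR3G (0.0097) were highest. POLR3C (-0.14), POLR3E (-0.12), CRCP (-0.12) and POLR2H (-0.017) lay between them. POLR3G turned sign after centring, and POLR2H after quantile normalization and cyclic loess. POLR3GL, one of a pair of alternative subunits, was at 7.12 with the antagomir and 6.73 with compound 1.

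Of the transcription factors, GTF3A was at -0.22, ZNF143 at -0.20, MAF1, a repressor of the polymerase, at -0.12, and the TATA-binding protein gene TBP at 0.11. The other listed subunits and factors had no named cluster, so these values describe the measured ones.

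Other RNAs made by RNA polymerase III were measured in 2 cases, and they differed in opposite directions. RPPH1, the RNA of ribonuclease P, was at 6.49 with the antagomir and 6.67 with compound 1. RMRP, the RNA of the related enzyme that processes ribosomal RNA, was at 11.69 and 11.42. Y RNAs, the 7SK and 7SL RNAs and U6 had no named cluster here.

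Of the PKR pathway, to which VTRNA2-1 is tied, 3 of 7 listed genes had a named cluster and all 3 were lower, also after each scaling. Past 1.5-fold were 0 of the 3, where 2.4% of named clusters passed. EIF2AK2, the gene of PKR itself, was at 9.55 with the antagomir and 9.42 with compound 1, TARBP2, a double-stranded RNA-binding inhibitor of PKR, was at -0.11, and STRBP, another gene of a double-stranded RNA-binding protein, was at -0.44. Their median was -0.13, and -0.16, -0.058 and -0.065 after centring, quantile normalization and cyclic loess. Over all named genes the median was -0.0093, and 7664 of 14884 were lower. Named clusters within 0.5 log2 of VTRNA2-1, a range that holds TARBP2, had a median of -0.043 and a robust SD of 0.18. Of the 10 listed selective autophagy receptors and ATG8 proteins 9 had a named cluster, with 3 higher and 6 lower (4 and 5 after quantile normalization or cyclic loess). The median of these 9 was -0.079, and -0.11, -0.013 and -0.0061 after the same 3 scalings. SQSTM1 (0.21) and GABARAPL1 (0.16) were highest, ahead of CALCOCO2 (0.059), while MAP1LC3B (-0.26) and GABARAPL2 (-0.24) were lowest. OPTN was at -0.13, MAP1LC3A at -0.098, GABARAP at -0.079 and TAX1BP1 at -0.044, and the last turned sign after quantile normalization and cyclic loess.

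**Figure D4:**
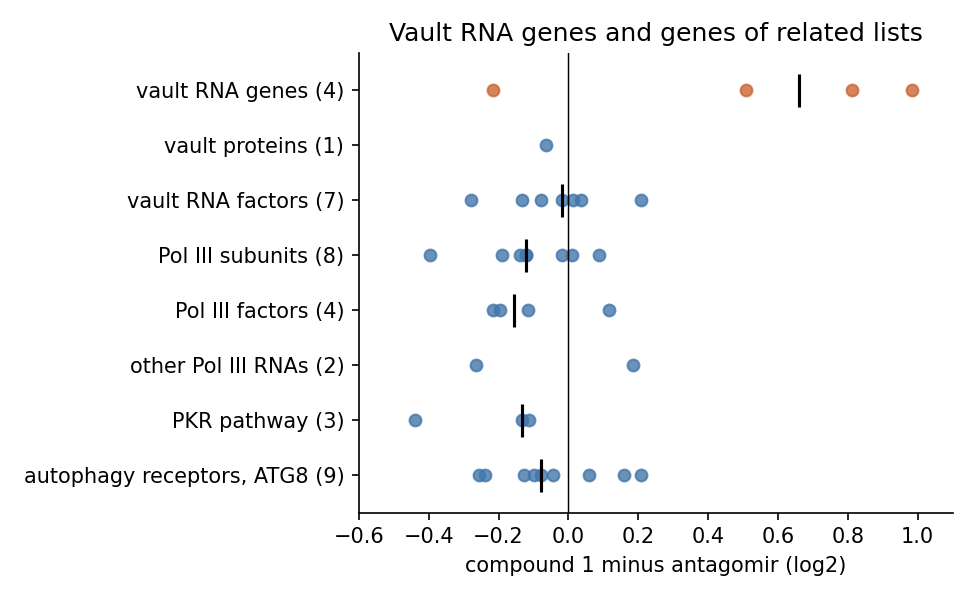
Difference (compound 1 minus antagomir, log2, horizontal axis) of each gene with a named cluster in the vault RNA family (orange) and in 7 lists of related genes (blue), with the number of genes in brackets and a black bar at the median where there are 3 or more. The VTRNA1 genes lie at 0.51 to 0.98, and the highest gene of the related lists, SQSTM1, at 0.21. EIF2AK2 and SQSTM1 are drawn in each list that holds them. Over all 16098 named clusters 1.45% were higher by 1.5-fold or more, and VTRNA1-3 ranked 347 from the top. The family was put forward with these differences known, so its distance from the lists is a description only.

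By the distance between their pairs of log2 levels on the 2 arrays, the genes nearest to VTRNA1-1 were ZNF736, PELI2 and STYXL2 (distances of 0.23, 0.28 and 0.29). Those nearest to VTRNA1-2 were PRR27, CSN1S1 and the microRNA gene MIR3663 (0.020, 0.038 and 0.071). For VTRNA1-3 they were EEPD1, HCAR3 and the microRNA gene MIR1299 (0.046, 0.088 and 0.092), and for VTRNA2-1 AKAP9, ZNRF3 and MXI1 (0.013, 0.014 and 0.018). VTRNA1-1 had the most sparsely filled surroundings of the 4. The distances rest on the same values as the differences, so this is no separate trait of VTRNA1-1.

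The line's markers were looked up on the antagomir array, with the limit that levels of different probes are not comparable. All 6 listed markers that MDA-MB-231 expresses (VIM, CD44, KRT18, KRT8, EGFR and AXL) had log2 levels of 7.80 to 12.78. Of the markers listed as low, ESR1 and PGR were at 5.31 and 4.77, below the array median of 5.59, and EPCAM was at 6.91, above it; ERBB2 and CDH1 had no named cluster here. Leukocyte markers with a named cluster, 2 of 5 (CD14 and LYZ), were at 5.18 and 4.96 with the antagomir and 5.48 and 5.44 with compound 1, so below the array medians of 5.59 and 5.62. Of 4 endothelial markers 3 were measured (PECAM1, VWF and KDR), at 5.32 to 6.92 and 5.57 to 7.03. VWF and KDR lay above the array medians on both arrays, and PECAM1 below them. Of 5 fibroblast markers 2 were measured (DCN and LUM), at 3.12 to 4.16 and 3.12 to 4.34. The defining markers PTPRC, CDH5 and COL1A1 had no named cluster here. The 5 leukocyte and endothelial markers were all higher on the compound 1 array, as the VTRNA1 genes were, also after each scaling. Their differences were 0.30 (CD14), 0.48 (LYZ), 0.25 (PECAM1), 0.068 (VWF) and 0.11 (KDR). In the deposited values 46.9% of all named clusters were higher, a share not matched for level. Named clusters within 0.5 log2 of VTRNA1-2, VTRNA1-1 and VTRNA1-3 had medians of 0.080, 0.043 and -0.024. The robust SDs there were 0.26, 0.20 and 0.19. Of the fibroblast markers LUM was higher (0.18), while DCN had the same value on both arrays and was lower after each scaling. The log2 of the summed signal was 6.08 and 6.46 for the leukocyte and 7.75 and 7.87 for the endothelial list, antagomir first. The part of these markers in the result was not tested.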

How the data were processed

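RNA of 2 pools of hypoxic MDA-MB-231 cells was hybridised to 1 Affymetrix array each. The authors deposited 1 value per transcript cluster and array, taken as log2 signal from the range of 0.37 to 14.20; no source used here gives the base, background correction or normalization. The series title names another array design than the probe table. The platform's probe table pairs 16098 of the 53617 clusters with a single gene symbol and 0 with more than 1, and leaves 37519 without a name. All 16098 were found in RefSeq (GRCh38.p14), used for symbols, gene types, lengths and order along the chromosome. No column was left unmapped (0).

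The deposited values were used without further scaling or level filter. Each difference is compound 1 minus antagomir; a listed gene with several clusters is represented by that of highest mean level. Robust SD is the scaled median absolute deviation. The family and the 12 gene lists were chosen with earlier results of these data known, and the class of short genes and the like-level range were added after the values were seen. The rule for named genes took every listed gene where at most 9 were measured and the 3 genes nearest in level. On each side of a locus it took the 2 nearest annotated genes with a named cluster, so any nearer gene without one was passed over. Alternatives were 3 scalings, 2 filters, 2 fold thresholds and the mean over clusters. Probe sequences were not used here, so cross-hybridisation between VTRNA1 copies was not tested. The code for differences was checked on data with known shifts far above the added noise, which says nothing of the precision of these values. Analyses used Python 3.11.15, numpy 2.4.6, pandas 2.3.3, matplotlib 3.10.9, R 4.3.3 and limma 3.58.1. The number of arrays limits the precision.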

Additional observations from a re-analysis of the deposited data

How the results depend on the processing

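The differences of the 4 vault RNA genes kept their direction under centring, quantile normalization and cyclic loess, and each moved by less than 1 robust SD of the clusters at its level. The count of vault RNA genes past 2-fold was 0 under these scalings and 2 at 1.5-fold. The filters and the 3-fold threshold could only give 0 again and say nothing of stability. With entry at the 50th percentile of mean levels (5.60) 3 members entered, VTRNA1-1 through the compound 1 array alone, and VTRNA1-2 was under it on both arrays. At the 25th percentile (4.29) all 4 entered, VTRNA1-2 through the compound 1 array alone. Over all named clusters 34 were higher and 17 lower past 2-fold (quantile normalization gave 25 and 23, cyclic loess 25 and 24); with entry at the 50th percentile these were 3 and 3, at the 25th 9 and 7, at 1.5-fold 234 and 153, and at 3-fold 4 and 1. List medians moved by less than 0.1 in each setting, though those of the vault RNA factors and of both lists of MDA-MB-231 markers, all close to 0, turned sign in 2 or 3 settings. No paired analysis was possible because only 1 array stands for each group, and none could be left out.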
